A study of Helianthemum marifolium subsp. andalusicum and Helianthemum marifolium subsp. marifolium and Helianthemum marifolium subsp. molle with 16 samples.

Results

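Adult leaves of Helianthemum marifolium subsp. marifolium were compared with adult leaves of subsp. molle by poly-A RNA sequencing. All libraries whose titles name either subspecies were used, 4 of marifolium and 4 of molle, which makes 8 of the 16 libraries of a study of 4 subspecies. No treatment is given. Plants of both groups were raised from scarified seed in one greenhouse regime with natural daylight, and their leaves were taken at day 446 after sowing from nodes near the shoot tip. Titles also hold a code that pairs the libraries: marifolium 12 and 15 share code 085, marifolium 17 and 18 share code 089, molle 22 and 25 share one code, and molle 27 and 29 another. The meaning of the code is unstated. Nothing in the labels ties each library to its own plant. The p-values therefore reflect only how far these libraries differed within a subspecies, and some of that spread may be technical.

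Helianthemum species are rockroses, small shrubs of dry and open ground in the Cistaceae, a family with no widely used reference plant. In such a species transcripts are assembled from the reads themselves, and assembled transcripts that share reads are grouped into clusters, which stand in for genes. Alleles that differ enough in sequence can end up in separate clusters. A count of 0 therefore covers a gene that is not transcribed and a gene whose reads were counted under another cluster, and these cannot be told apart from the counts. Likewise, in whole leaves, fewer cells of a type and less RNA per cell cannot be told apart. The files used here pair no gene names with clusters, so the leaf origin of the RNA could not be checked against marker genes and no role is given to any cluster. Identifiers are printed for 2 clusters that were higher and 2 that were lower in marifolium, and the others are described by their levels.

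Totals ran from 29339551 to 31588345 counts in marifolium and from 26908113 to 34121011 in molle, with means of 30478222 ± 947334 and 30764839 ± 3492057 counts (SD, n = 4 each). Levels are given in CPM, a cluster's count scaled to a common library total. A library at 0 counts could still hold a cluster at 0.0879 CPM (deepest library) to 0.111 CPM (shallowest), by counting error alone. Of 100462 clusters, 33891 had 10 or more counts in at least 4 of the 8 libraries and were tested. The tested clusters held between 94.75% and 98.57% of the counts in marifolium, lowest in library 18, and between 98.15% and 98.9% in molle.

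Marifolium libraries varied more among themselves than molle libraries did. The distance between libraries was taken as the difference of their log2 CPM, averaged over the tested clusters as a root mean square. It averaged 2.08 ± 0.175 within marifolium and 1.72 ± 0.0695 within molle (SD over 6 pairs each, which share libraries). Across the subspecies it averaged 2.29 ± 0.152 (SD over 16 pairs). The shortest distance within marifolium, 1.74, joined libraries 12 and 15 of code 085, and lay inside the molle range of 1.59 to 1.77. The 5 other marifolium pairs lay between 2.09 and 2.23, and the longest of them joined libraries 17 and 18, which share code 089. Distances to molle followed the marifolium code. Libraries 17 and 18 of code 089 stood at 2.39 to 2.49 from the molle libraries, and libraries 12 and 15 of code 085 at 2.11 to 2.19, so these ranges did not overlap. The separation by code remained over clusters with counts in both subspecies, at 2.27 to 2.40 for code 089 and 1.99 to 2.07 for code 085. Over those clusters the mean was 2.17 across the subspecies and 2.09 within marifolium, and libraries 12 and 15 lay nearer to every molle library than to marifolium 17 and 18, at 2.11 to 2.20. With 2 libraries a code it was not tested.

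**Figure D1:**
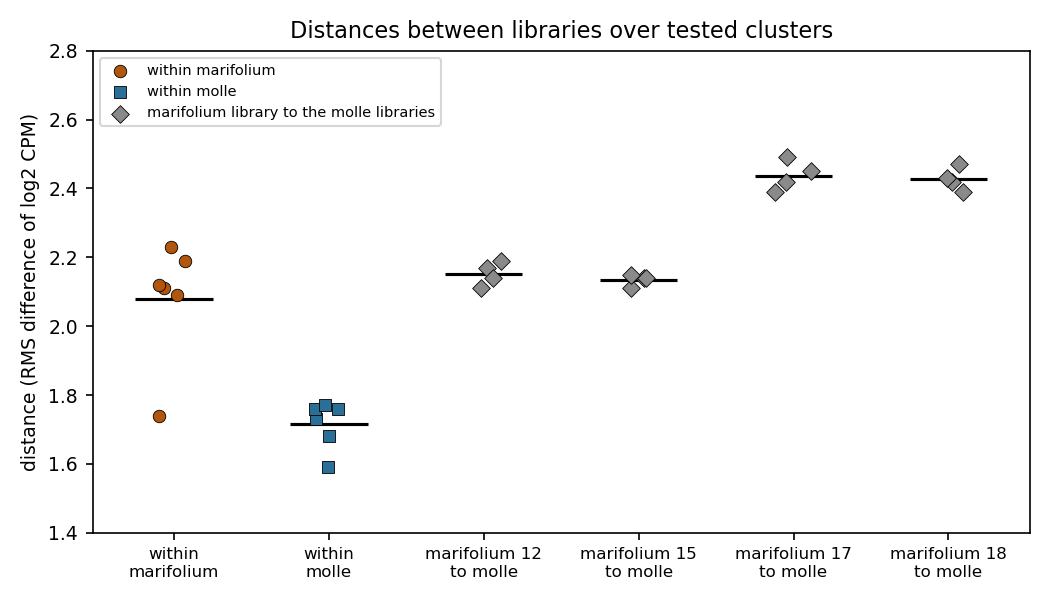
Distance between libraries on the y axis, as a root mean square of log2 CPM differences (33891 tested clusters); each point is a pair of libraries and each line a mean. Pairs within marifolium average 2.08 and pairs within molle 1.72, while marifolium 17 and 18 lie at 2.39 to 2.49 from molle and marifolium 12 and 15 at 2.11 to 2.19.

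Between the subspecies 924 of the 33891 tested clusters differed, which is 2.73%, with 413 higher (1.22%) and 511 lower (1.51%) in marifolium. A call means an adjusted p under 0.05 from edgeR's quasi-likelihood test, with the Benjamini-Hochberg adjustment taken over all tested clusters. Most of these calls concerned clusters without a single count in one subspecies. Such clusters made up 652 of the tested clusters, or 1.92%, and 564 of the calls, or 61.0%. A cluster at 0 in 4 libraries passed the limit of 10 counts in 4 libraries only by reaching 10 counts in every library of the other subspecies. These clusters had to differ, and their calls are read as a description of presence and absence. Among the 33239 clusters with counts in both subspecies, 360 were called (1.08%), 173 of them higher (0.52%) and 187 lower (0.563%) in marifolium. Fitted and adjusted on their own, without the one-sided clusters, the clusters with counts in both subspecies gave 131 calls (0.394%), 63 higher and 68 lower. DESeq2 called 2322 clusters of 33260 with an adjusted p (6.98%), of which 1675 had counts in both subspecies. With all 16 libraries in the edgeR fit 1019 clusters were called (3.01%), 567 of them with counts in both.

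**Figure D2:**
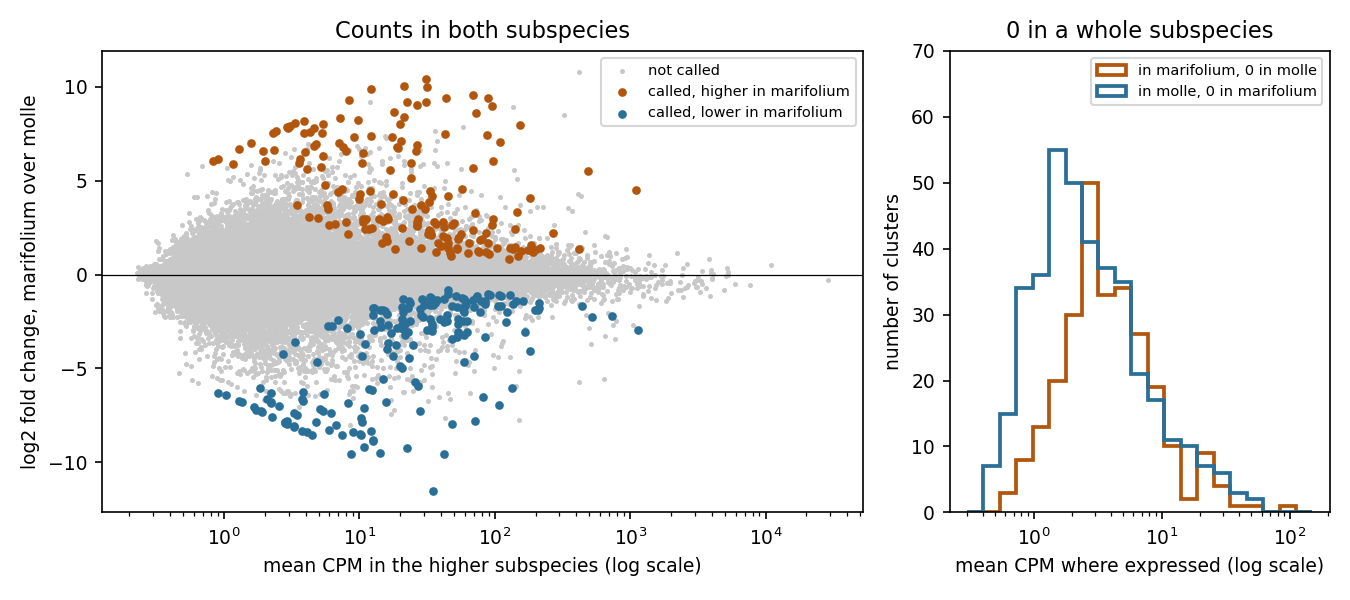
Left, log2 fold change of marifolium over molle on the y axis against mean CPM in the higher subspecies on a log axis, for 33239 clusters with counts in both subspecies; the 173 calls higher in marifolium are orange, the 187 lower are blue. Right, number of clusters by mean CPM where expressed, on a log axis, for 265 clusters at 0 in molle and 387 at 0 in marifolium; most of both sets lie between 1 and 10 CPM.

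Calls with counts in both subspecies ran from near absence on one side to graded change. The 360 calls keep the adjustment over all tested clusters, with the one-sided clusters that had to differ among them. When those were left out of the fit, 131 of the 360 were still called. How many of the 131 were graded was not counted. In 65 of the 360 calls the lower subspecies had no more than 3 counts over its 4 libraries, and in another 35 it had 4 to 10 counts. Clusters with so few counts on one side mostly passed the filter through the other side alone, as those at 0 did. Of the clusters tested, 65 of 99 with 1 to 3 counts were called (65.7%) and 13.7% of those with 4 to 10 counts, and nothing is read from these shares. In another 45 calls, of 7847 clusters tested (0.573%), the lower subspecies had 11 to 100 counts, and 30 of them were higher and 15 lower in marifolium. Graded change, with over 100 counts in each subspecies, was called in 215 of 25037 tested clusters (0.859%), 96 of them higher and 119 lower in marifolium. The median size of a graded change was 2.17 on the log2 scale, or 4.49-fold, against 0.44 over all 25037 clusters whatever their p. The smallest that was called was 0.84 and the largest 6.98, and only 4 graded calls were under 2-fold. Calls became more frequent with level: 3 of 3960 clusters under 1 CPM in the higher subspecies were called, 92 of 15217 between 1 and 10 CPM, 222 of 12066 between 10 and 100 CPM, and 43 of 1996 above 100 CPM. All 4 marifolium libraries lay above all 4 molle libraries in 1448 of the 33239 clusters and below them in 1611, and of the calls 172 and 187 were separated in this way.

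Among clusters higher in marifolium with counts on both sides, the smallest p belonged to Cluster-3823.62078. Its levels were 24.5, 16.9, 24.6 and 19.97 CPM in marifolium 12, 15, 17 and 18, against 0.0586 CPM in molle 22 and 0 in molle 25, 27 and 29. It was thus nearly absent from molle, with 2627 counts in marifolium and 2 in molle, a ratio per total count of 1326 (95% exact interval 367 to 10954, counting error only; edgeR adjusted p = 0.0016). Like the clusters at 0 it passed the filter through marifolium alone, which largely fixed its call. Other libraries of the series were uneven for it: it ran from 0 to 7.59 CPM in andalusicum and from 0.328 to 6.54 CPM in origanifolium. The second, an assembled transcript of 386 nt, was low but not at 0 in molle, at 32.4, 23.5, 32.0 and 18.7 CPM in marifolium against 0.352, 0.334, 0.0901 and 0.0696 CPM in molle. Its lowest marifolium library was above its highest molle library by a wide margin, and edgeR put the log2 fold change at 6.90 with an SE of 0.61 (adjusted p = 0.00169). The third stood at 40.2, 50.8, 39.8 and 49.4 CPM in marifolium against 2.29, 1.45, 3.88 and 1.98 CPM in molle (log2 fold change 4.18 with an SE of 0.38, edgeR adjusted p = 0.00169). This cluster was also high in origanifolium, at 36.1 ± 5.58 CPM, and low in andalusicum, at 0.679 ± 0.613 CPM (SD, n = 4 each). The fourth, a transcript of 1669 nt, averaged 30.3 ± 9.39 CPM in marifolium and 2.54 ± 0.288 CPM in molle (SD, n = 4 each; log2 fold change 3.52 ± 0.32 SE, edgeR adjusted p = 0.00169), and molle was the lowest of the 4 subspecies, with 17.3 ± 9.42 CPM in andalusicum and 23.3 ± 3.83 CPM in origanifolium. These 4 clusters stayed called in each of 22 alternative fits and, like every cluster, lost their call with the libraries of each title code summed.

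The largest fitted changes in the same direction, among clusters with counts on both sides, were all cases of near absence in molle. Besides Cluster-3823.62078 they were a transcript of 2558 nt with 3762 counts in marifolium and 2 in molle, a cluster with 3848 and 3 counts, and one with 1486 counts and 1. The 2 with the most counts were uneven across marifolium and alike in how: the transcript of 2558 nt stood at 28.5, 5.5, 50.8 and 38.6 CPM in libraries 12, 15, 17 and 18, and the cluster with 3848 counts at 28.0, 6.55, 42.5 and 49.7 CPM. Library 15 was the low one in both. In limma voom both lost their call, at adjusted p = 0.0641 for the transcript of 2558 nt. The code entered that fit as a random block, but with an estimated correlation of -0.00356, near none. The cluster with 3848 counts also lost its call without marifolium 12 and 18 (edgeR adjusted p = 0.0556). The last of these clusters was more even, at 16.8, 7.58, 10.7 and 13.5 CPM in marifolium.

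Of the clusters lower in marifolium, Cluster-3823.53041 had the smallest p. Its levels were 0.823, 1.13, 0.455 and 1.02 CPM in marifolium 12, 15, 17 and 18, against 133, 120, 101 and 73.3 CPM in molle 22, 25, 27 and 29. It was present at a low level in every marifolium library and did not come near the molle range, and edgeR gave a log2 fold change of -6.98 with an SE of 0.43 (adjusted p = 0.00097). Andalusicum resembled molle in this cluster, at 55.2 ± 12.9 CPM, and origanifolium was low, at 1.07 ± 1.95 CPM (SD, n = 4 each). A transcript of 1895 nt had the same order of subspecies at a smaller change: 7.74 ± 1.34 CPM in marifolium and 62.1 ± 4.70 CPM in molle (SD, n = 4 each; log2 fold change -3.08 ± 0.23 SE, edgeR adjusted p = 0.00135), with 50.7 ± 8.55 CPM in andalusicum and 8.17 ± 6.15 CPM in origanifolium. The levels of a transcript of 1778 nt were 0.475, 0.497, 0.195 and 0.614 CPM in marifolium against 29.3, 28.0, 24.8 and 26.8 CPM in molle (log2 fold change -5.95 ± 0.46 SE, edgeR adjusted p = 0.00135). Here a single andalusicum library reached the molle level, at 33.5 CPM, and the 3 other andalusicum libraries lay between 0.58 and 1.26 CPM. The fourth cluster was lowest in marifolium, at 6.57 ± 0.394 CPM, and averaged 58.9 ± 14.4 CPM in molle, 11.6 ± 7.03 CPM in andalusicum and 17.0 ± 7.30 CPM in origanifolium (SD, n = 4 each; log2 fold change -3.24 ± 0.28 SE, edgeR adjusted p = 0.00167). All 4 stayed called in each of the 22 alternative fits and lost their call with the codes summed.

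Among clusters with counts on both sides, those that fell furthest by fitted change were nearly absent from marifolium. In 2 of them molle 27 stood far above the other molle libraries. One had a single count in marifolium and stood at 1.06, 5.39, 119 and 15.1 CPM in molle 22, 25, 27 and 29 (edgeR adjusted p = 0.0223). The other had 2 counts in marifolium and stood at 0.879, 6.17, 47.0 and 2.61 CPM in molle (edgeR adjusted p = 0.0311). The first lost its call in 12 of 22 alternative fits and the second in 14 of 21, including the fit of clusters with counts on both sides alone, and without marifolium 12 and 18 their adjusted p was 0.175 and 0.194 (edgeR). With molle 27 left out, the first stayed called (edgeR adjusted p = 0.0375) and the second did not (edgeR adjusted p = 0.0788). The low counts in marifolium meant that such clusters passed the filter through molle alone. The same holds for a cluster more even across molle, which had 7 counts in marifolium, all in library 17, and 28.5, 49.6, 53.1 and 36.01 CPM in molle (edgeR adjusted p = 0.00477). It was at 0 in all 4 origanifolium libraries and ran from 1.74 to 21.9 CPM in andalusicum.

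The most abundant clusters called on both sides were looked up after the values had been seen. One averaged 1106 CPM in marifolium, at 342, 1005, 853 and 2223 CPM in libraries 12, 15, 17 and 18, against 15.6, 32.4, 74.98 and 60.5 CPM in molle 22, 25, 27 and 29. Marifolium 12 and 18 were its extremes, and all 4 stood above every molle library (log2 fold change 4.52 ± 0.73 SE, edgeR adjusted p = 0.0183). In the other direction, a transcript of 839 nt had 93.4, 269.8, 133 and 103 CPM in marifolium, against 1085, 1051, 1177 and 1229 CPM in molle (log2 fold change -2.95 ± 0.41 SE, edgeR adjusted p = 0.0116). Molle was even in it, at 1135 ± 81.9 CPM (SD, n = 4), and library 15 was the highest of marifolium. Origanifolium was close to molle in it, at 1002 ± 441 CPM, and andalusicum lay lower, at 592 ± 166 CPM (SD, n = 4 each). Another cluster was at 167 ± 24.3 CPM in marifolium and 729 ± 221 CPM in molle (SD, n = 4 each; log2 fold change -2.21 ± 0.31 SE, edgeR adjusted p = 0.0114), and there andalusicum stood with molle, at 608 ± 179 CPM, and origanifolium with marifolium, at 143 ± 29.5 CPM (SD, n = 4 each).

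Clusters present in all 4 marifolium libraries and at 0 in molle numbered 265, of which 240 were called (90.6%, a share that the choice of clusters largely fixes). Together they took between 0.0798% of the counts in marifolium 15 and 0.222% in marifolium 18. Their mean level in marifolium had a median of 3.67 CPM, and relative to a floor of 3 counts for the 4 molle libraries together the means were at least 22.3-fold to at least 4447-fold higher in marifolium. Levels were uneven across marifolium: the highest library exceeded the lowest by a median of 7.31-fold, by over 4-fold in 194 of the clusters and by over 10-fold in 101. The cluster at the top, Cluster-3823.41664, had 159, 69.2, 84.4 and 121 CPM in marifolium 12, 15, 17 and 18, against 0 counts in molle (at least 4447-fold higher, edgeR adjusted p = 0.00139). It was among the 8 clusters of this kind that had 10 or more counts in every andalusicum and every origanifolium library. A second cluster, a transcript of 2023 nt, stood at 24.5, 21.9, 29.4 and 16.1 CPM in marifolium, at 11.4 to 24.8 CPM in andalusicum, and at 10.2 CPM in 1 origanifolium library with 0 in the other 3 (edgeR adjusted p = 0.00167). Next, a cluster with 75.1, 40.2, 29.7 and 50.9 CPM in marifolium was at 0 in all 4 andalusicum libraries as well as in molle, and at 44.3 to 75.4 CPM in origanifolium (edgeR adjusted p = 0.00169). The remaining 3 picked clusters averaged between 26.5 and 34.7 CPM in marifolium, and 1 of them, a transcript of 1399 nt, had no count in andalusicum and counts in a single origanifolium library, at 20.8 CPM.

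Clusters present in all 4 molle libraries and at 0 in marifolium were more numerous, at 387, of which 324 were called (83.7%, again largely fixed by the choice). They took between 0.171% and 0.207% of the molle counts. Their mean level in molle had a median of 2.32 CPM, and the molle means exceeded the floor of 3 counts over the 4 marifolium libraries by at least 18.4-fold to at least 2233-fold. Molle libraries were more even in them than marifolium libraries were in the opposite set, with a median ratio of highest to lowest library of 3.37, over 4-fold in 151 clusters and over 10-fold in 42. Cluster-3823.50903 led by both p and size, at 0 in marifolium and at 58.0, 45.6, 56.1 and 60.2 CPM in molle 22, 25, 27 and 29 (lower in marifolium by at least 2233-fold, edgeR adjusted p = 0.00097). It had no count in origanifolium either, and ran from 1.16 to 28.9 CPM in andalusicum. Another cluster at 39.2, 62.3, 50.2 and 60.4 CPM in molle shared this distribution, at 19.8 ± 3.79 CPM in andalusicum (SD, n = 4) and with counts in a single origanifolium library, at 0.076 CPM (edgeR adjusted p = 0.00135). Yet another stood at 59.5, 37.0, 35.8 and 38.4 CPM in molle, at 17.1 to 40.3 CPM in andalusicum and at 2.21 CPM in 1 origanifolium library, with 0 in its other 3 (edgeR adjusted p = 0.00135). The fourth, a transcript of 2033 nt with 32.8, 40.5, 41.5 and 29.1 CPM in molle, occurred elsewhere only in 1 andalusicum library, at 48.2 CPM (edgeR adjusted p = 0.00135).

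**Figure D3:**
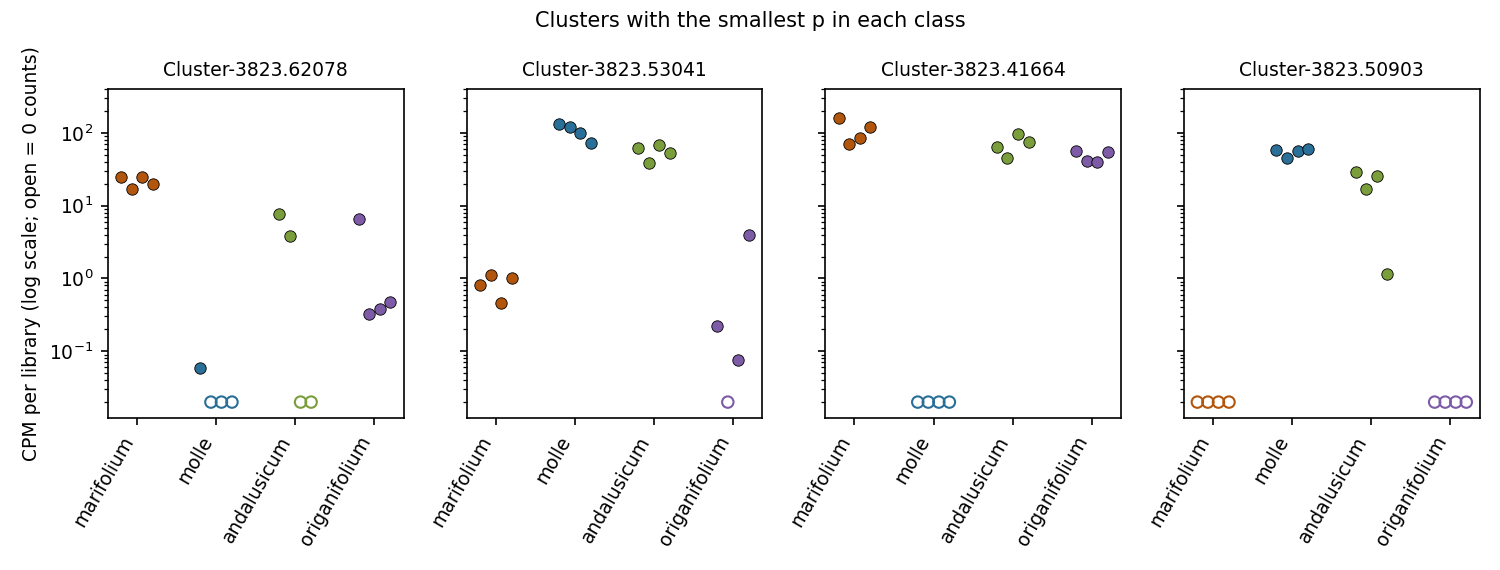
CPM in each library on a log axis for the 4 clusters with printed identifiers, with 4 libraries for each of the 4 subspecies; filled points are libraries with counts and open points at the bottom are libraries with 0 counts. Cluster-3823.53041 and Cluster-3823.50903 are high in molle and andalusicum and low or at 0 in marifolium, while Cluster-3823.41664 is at 0 in molle alone.

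The 8 andalusicum and origanifolium libraries took no part in choosing these clusters, and they distributed differently over both one-sided sets. Of the clusters at 0 in molle, 76 of 265 (28.7%) had no count in any of these 8 libraries, against 29 of 387 (7.49%) of the clusters at 0 in marifolium. Among clusters at 0 in marifolium, andalusicum had 10 or more counts in every library in 89 (23.0%) and origanifolium in 18 (4.65%). For clusters at 0 in molle the order turned round, with 28 (10.6%) in andalusicum and 46 (17.4%) in origanifolium. Andalusicum had no count in 54 (14.0%) of the clusters at 0 in marifolium and in 121 (45.7%) of those at 0 in molle. In 60 of the 265 clusters at 0 in molle and 142 of the 387 at 0 in marifolium, both other subspecies had counts but neither reached 10 in all of its libraries. No test was made of these shares, because clusters are not independent of each other. They were not taken over all tested clusters, and the limit of 10 counts was not scaled to the depth of each library.

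At the 360 clusters called with counts in both subspecies, origanifolium mostly stood nearer to marifolium, and andalusicum stood nearer to molle in most of the clusters higher in marifolium. Nearness was judged on mean log2(CPM + 0.1). The 360 include 100 calls with 1 to 10 counts in the lower subspecies (47 higher and 53 lower in marifolium). Only 355 of all 33239 clusters were of that kind, and the shares below were not taken without them. Nor were the shares taken over the 131 clusters still called with the one-sided clusters left out of the fit. Origanifolium was nearer to molle in 62 of the 173 clusters higher in marifolium (35.8%) and in 43 of the 187 lower ones (23.0%), against 50.0% of all 33239 clusters with counts in both. Andalusicum was nearer to molle in 115 of 173 (66.5%) and in 104 of 187 (55.6%), against 53.7% of all, so its share among the lower ones was near that of all clusters. The split with origanifolium on the side of marifolium and andalusicum on the side of molle held for 70 of the 173 and 74 of the 187 clusters (40.5% and 39.6%), against 23.3% of all. The opposite split held for 17 and 13 (9.83% and 6.95%), against 19.6% of all. Among the clusters lower in marifolium, both other subspecies stood nearer to marifolium in 70 (37.4%) and nearer to molle in 30 (16.04%). Over all 33239 clusters these shares were 26.7% and 30.4%. Among the clusters higher in marifolium the counts were 41 (23.7%) nearer to marifolium and 45 (26.0%) nearer to molle, both somewhat below the shares of all clusters.

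By the locus names within transcript names, few one-sided clusters had a counterpart that filled the gap. Of the 265 clusters at 0 in molle, 29 had at least 1 other counted cluster of the same locus, and in 5 such a cluster had 10 or more counts in every molle library. Of the 387 at 0 in marifolium, 61 had another cluster of the locus and in 12 it was present in every marifolium library. No share over all tested clusters is given beside these numbers, so whether they are unusual was not tested. A full exchange was found in 1 locus: its first form stood at 3.23, 1.66, 3.44 and 1.4997 CPM in marifolium 12, 15, 17 and 18, with 0 in molle (edgeR adjusted p = 0.0246), and its second form at 0 in marifolium and at 2.49, 4.16, 2.19 and 2.33 CPM in molle 22, 25, 27 and 29 (edgeR adjusted p = 0.0196). Counterparts assembled under another locus name would not be seen this way. Where a length is given in the transcript name, the clusters at 0 in molle had a median of 916 nt (112 clusters) and those at 0 in marifolium 757 nt (123 clusters), against 1393 nt over 11229 tested clusters and 1619 nt over 115 called with counts in both.

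Marifolium 12 and 18 shared a large set of clusters that the other marifolium libraries lacked. In all, 5045 clusters had 10 or more counts in libraries 12 and 18 and 0 in 15 and 17, although 12 and 18 do not share a title code. The 5 other marifolium pairs had between 440 and 1754 such clusters, and the 6 molle pairs between 250 and 685. The set took 1.39% of the counts in marifolium 12 (95% exact binomial interval 1.389 to 1.398) and 2.52% in marifolium 18 (2.515 to 2.526), which covers counting error only. Because the set was chosen on counts in libraries 12 and 18, a higher share there than in other libraries was largely fixed. The sets of the other pairs, chosen in the same way, took at most 0.724% in marifolium (library 17, pair 17 and 18). In molle they took at most 0.648% (library 27, pair 27 and 29). In the 12 andalusicum, molle and origanifolium libraries the set of 12 and 18 took between 0.0425% and 0.114%. Of the 5045 clusters, 3411 had no count in any of those 12 libraries, against at most 133 for any other marifolium pair and at most 75 for any molle pair. After this pair, the next most numerous marifolium set was shared by libraries of the same code, 1754 clusters in 12 and 15, followed by 776 in 12 and 17 and by 757 in 17 and 18, which share a code. In molle the 2 pairs of a shared code had the highest numbers, 557 in 22 and 25 and 685 in 27 and 29.

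**Figure D4:**
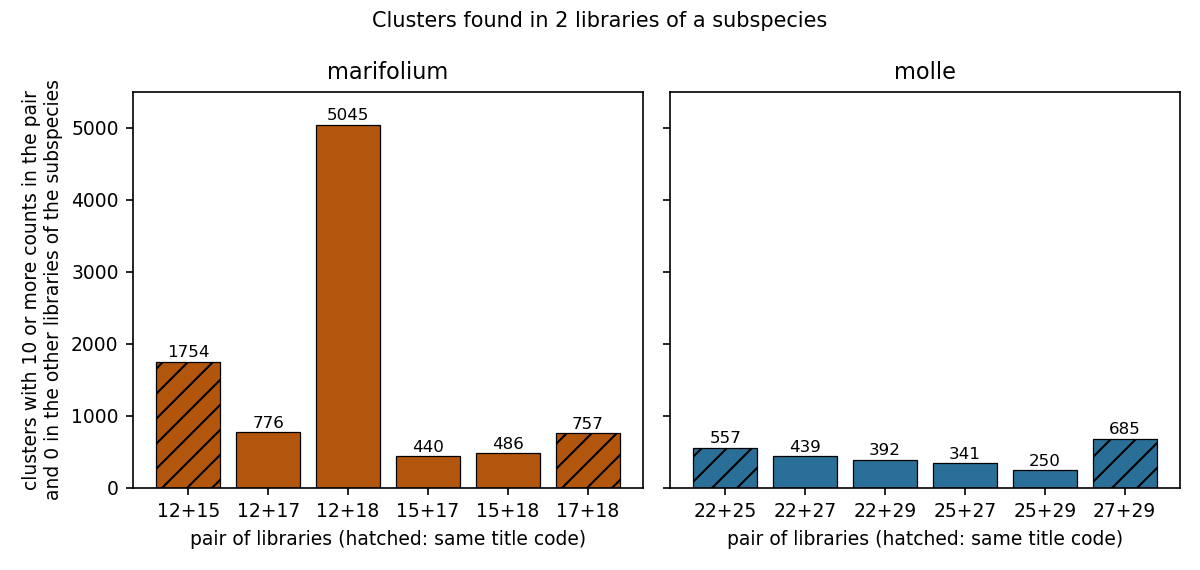
Number of clusters with 10 or more counts in both libraries of a pair and 0 in the other libraries of the same subspecies on the y axis, for the 6 pairs of marifolium and the 6 of molle; hatched bars are pairs with the same title code. Marifolium 12 and 18 share 5045 such clusters, the other marifolium pairs 440 to 1754 and the molle pairs 250 to 685.

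Few clusters of the set shared by marifolium 12 and 18 entered the comparison with molle. Only 212 of its 5045 clusters were tested, since the others reached 10 counts in fewer than 2 molle libraries. Among the 265 clusters at 0 in molle, both libraries stood over 4-fold above both 15 and 17 in 14, compared with 9 for libraries 17 and 18 and with 1 or 0 for each other pair. Without libraries 12 and 18, 147 of 33891 clusters were called (0.434%), 34 higher and 113 lower in marifolium, and 110 of these were among the 924 (11.9% of the 924 and 74.8% of the 147). By class as set on all 8 libraries, 81 had counts in both subspecies, 9 were at 0 in molle and 57 at 0 in marifolium. A cluster counted in marifolium only in 12 or 18 stayed in the first class, although it was at 0 in the marifolium libraries fitted. How many of the 81 were of this kind was not counted, and 44 of the 81 were among the 924. Leaving out any other pair of marifolium libraries, which leaves as few libraries, gave between 159 calls (without 12 and 17) and 327 (without 12 and 15). The number without 12 and 18 was the lowest of the 6 pairs, and all 6 lay below the numbers with 3 marifolium libraries. Leaving out a single library gave 375, 601, 494 and 453 calls without marifolium 12, 15, 17 and 18, and 303, 298, 246 and 349 without molle 22, 25, 27 and 29. A loss of 1 molle library thus cost more calls than a loss of 1 marifolium library, whichever it was. Of the 25 clusters picked by the rule for single clusters, 21 stayed called without libraries 12 and 18, among them the 4 with printed identifiers, whose adjusted p was 0.0232, 0.0152, 0.0152 and 0.0115 (edgeR).

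**Figure D5:**
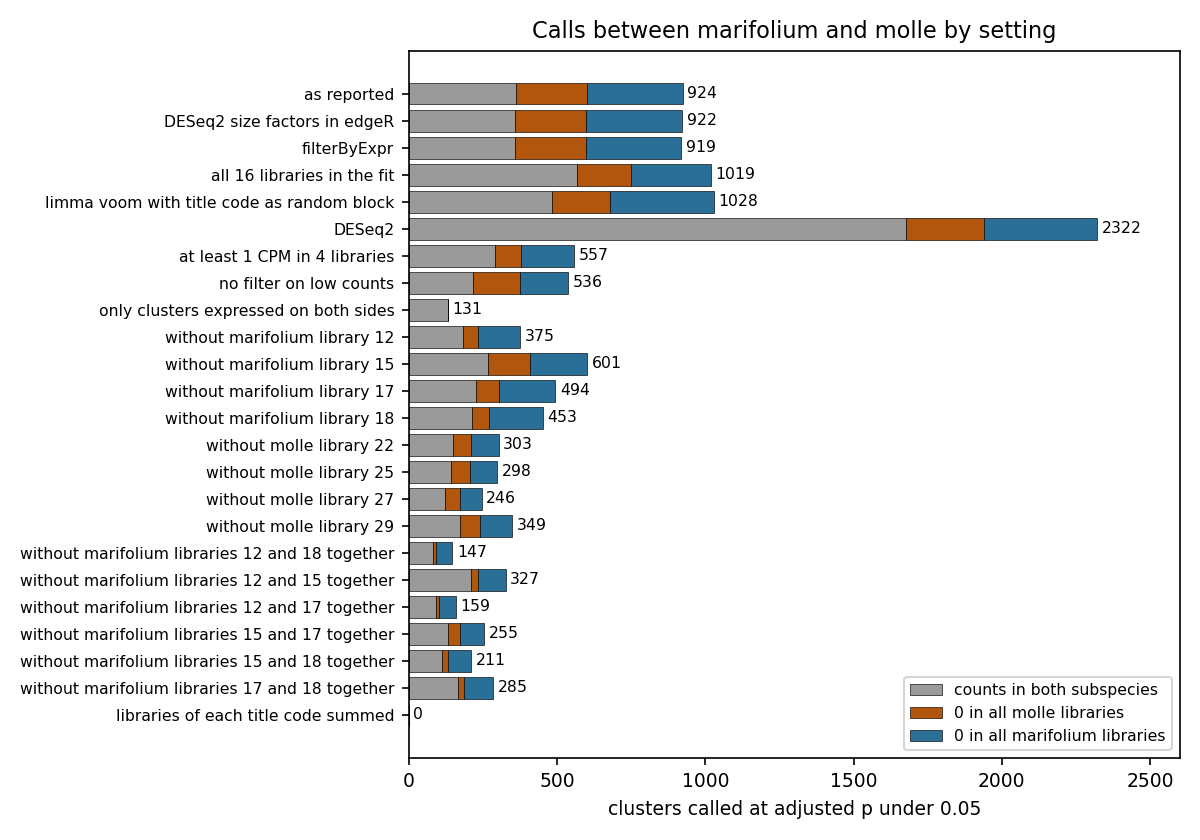
Number of clusters called at adjusted p under 0.05 on the x axis under each setting, divided into clusters with counts in both subspecies, at 0 in all molle libraries and at 0 in all marifolium libraries. These classes were set on all 8 libraries, also where libraries were left out. The comparison as reported gives 924, DESeq2 2322, single libraries left out 246 to 601, pairs of marifolium libraries left out 147 to 327, and libraries summed by title code 0.

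With the 2 libraries of each title code summed, so that 2 codes of marifolium stood against 2 of molle, edgeR called 0 clusters, with 3523 at an unadjusted p under 0.05 against 4473 with the libraries separate. Limma voom, in which the code entered as a random block, estimated a correlation of -0.00356 between libraries of a code and called 1028 clusters (3.03%), 484 of them with counts in both subspecies. The codes lie within the subspecies, so code and subspecies cannot be separated by a comparison inside one code.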

How the data were processed

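Leaf poly-A libraries were analysed from whole-number counts per cluster of assembled transcripts, used as deposited by the authors, and from a deposited list of transcript names. FastQC is named in the submitters' processing notes, while assembler, clustering tool, aligner, counter and strandedness are unstated there and in the labels. All columns matched a title (0 unmatched), and libraries were grouped by title. Libraries of one subspecies differed beyond sampling noise in every pair (chi-square per degree of freedom 104 to 192).

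The subspecies were compared in R 4.3.3 with edgeR 4.0.16 (TMM normalization and the quasi-likelihood test) on the 8 libraries, with p-values adjusted by Benjamini-Hochberg and called under 0.05. Replicates varied widely, with a common dispersion of 0.753 and a coefficient of variation of 86.8%. Fold changes are marifolium over molle on the log2 scale, with a standard error from the F statistic. CPM uses all counts of a library; distances used log2 CPM with a prior count of 2. DESeq2 1.42.0 and limma 3.58.1 were alternatives; intervals came from scipy 1.17.1, and thinning from numpy 2.4.6 (seed 1). DESeq2 gave no adjusted p for 631 clusters, which its count-outlier rule set aside.

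Single clusters were taken from calls with at least 1 CPM in the higher subspecies and no overlap between subspecies, as the 4 smallest p and the 4 largest fitted changes in each of 4 classes, which gave 25 clusters. Loci with over 30 clusters (3 of them) were left out of the search for counterparts. The comparison, its classes and these rules were chosen with earlier results of these data known.

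On counts simulated from the 33891 tested clusters with 200 changed, edgeR called 0 of 34 clusters raised 2-fold and 0 of 34 lowered 2-fold. It recovered 30.3% (raised) and 36.4% (lowered) of those changed 8-fold, and 66.7% (raised) and 60.6% (lowered) of those changed 64-fold. Of 33691 unchanged clusters 1 was called, which is 1.54% of the simulated calls. Simulated libraries were independent and had no title codes, so this share does not give the error rate of the calls on the real counts.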

Additional observations from a re-analysis of the deposited data

Results flagged for a closer look

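A library standing apart from the 3 others of its subspecies was looked for in 50 groups of 4 values, over the levels of the 25 single clusters and 5 summaries of each subspecies' libraries, and found in 11. For normally distributed values chance flags about 1 in 20 groups, a rate that may not hold for CPM. Groups with all 4 values at 0 cannot be flagged and are not among the 50. The rate has no bearing on 8 of the 11, where counts in 1 library beside 3 at 0 meet the rule by construction. In the other 3 the level was substantial, all in molle. Molle 27 stood at 119 CPM against 1.06 to 15.1 CPM in the other molle libraries for a cluster lower in marifolium, and at 47.0 CPM against 0.879 to 6.17 CPM for another. Among the single clusters with counts on both sides, these had the largest and the fourth largest fitted fall. Molle 22 stood at 59.5 CPM against 35.8 to 38.4 CPM for a cluster at 0 in marifolium. The 8 with a few counts in a single library were molle 22 at 0.0586 CPM, molle 25 at 0.0743, 0.111 and 0.0372 CPM in 3 clusters higher in marifolium, marifolium 15 at 0.0331 and 0.0662 CPM, marifolium 17 at 0.227 CPM and marifolium 12 at 0.0317 CPM in 4 clusters lower in marifolium.

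Outside the tested clusters, 4833 clusters had 10 or more counts in marifolium 12 and 18 and 0 in marifolium 15 and 17. They are the untested members of the set of 5045.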

How the results depend on the processing

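TMM against DESeq2 size factors and filterByExpr left all counts of calls within 1.5 times. The classes of calls below were set on all 8 libraries, also where libraries were left out of the fit. Calls in all, with counts on both sides, at 0 in molle and at 0 in marifolium were 536, 215, 159 and 162 without a filter on low counts; 557, 289, 90 and 178 with at least 1 CPM in 4 libraries; 147, 81, 9 and 57 without marifolium 12 and 18; and 0 in each with codes summed. Added after seeing the data, leaving out other marifolium pairs gave, for the 3 classes in that order, 209, 23 and 95 (12 and 15), 91, 10 and 58 (12 and 17), 133, 39 and 83 (15 and 17), 113, 18 and 80 (15 and 18) and 167, 19 and 99 (17 and 18). Single libraries left out gave 246 to 601 in all, 121 to 268 with counts on both sides, 52 to 140 at 0 in molle and 73 to 193 at 0 in marifolium. DESeq2 gave 2322 in all and 1675 with counts on both sides, the fit on all 16 libraries 567 with counts on both sides, and clusters with counts on both sides alone 131. The share of calls higher in marifolium was 44.7%, 37.0% in limma voom, and 23.1% to 35.3% with any pair of marifolium libraries left out, lowest without 12 and 18. Fewer libraries or fewer clusters enter several of these fits by construction; beyond that the cause was not tested.

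Clusters present in marifolium and at 0 in molle were 154 with 20 counts as the limit and 564 without marifolium 12 and 18; those present in molle and at 0 in marifolium were 243 with 20 counts, 598 with 5 counts and 650 without 12 and 18, where fewer libraries had to meet the condition. Mean distances within marifolium, within molle and between them were 2.65, 2.11 and 2.88 with a prior count of 0.5, and 1.86, 1.54 and 2.08 with at least 1 CPM in 4 libraries. At an adjusted p under 0.01, origanifolium was nearer to molle in 3 of 21 clusters lower in marifolium (14.3%). These are too few to read a shift from the 43 of 187 (23.0%) under 0.05. Of the 25 single clusters 0 changed direction, and 18 stayed called in every alternative but the summed codes, where all lost their call. Of the other 7, 5 had counts on both sides. Changes of 2-fold were rarely detectable: 0 of 34 in each direction were called on simulated data, and 4 graded calls were under 2-fold. No paired analysis was possible because the subspecies share no library number.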
